A study of Mus musculus with 6 samples.

Results

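The 10 genes examined here belong to the intermediate mesoderm, nephric duct and urogenital ridge and were measured in whole mouse embryos. They were taken by symbol from a fixed list (*Osr1*, *Lhx1*, *Pax2*, *Pax8*, *Gata3*, *Emx2*, *Wt1*, *Sall1*, *Gdnf* and *Ret*), and all 10 were among the 55401 genes of the count table. RNA-seq had been performed on embryos at E10.5 (embryonic stage, in days of gestation) of 2 genotypes with 3 libraries each, to ask what an excess of *Mir483* does to the embryonic transcriptome. WT embryos were wild-type littermates with the unmodified *Igf2* locus. 5C embryos carried 5 tandem copies of the *Mir483* unit inside *Igf2* at its own locus, an allele made in ES cells, transmitted by chimeric males and obtained for only 1 of the array lengths attempted. Per the study's methods both genotypes were on a C57BL/6J background and lysates of 2 male embryos were combined per library, so that single embryos cannot be told apart, and 5C embryos die later in gestation.

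The intermediate mesoderm is the strip between the somites and the lateral plate from which the kidneys, gonads and their ducts arise. *Osr1* and *Lhx1* mark it first, *Pax2* and *Pax8* commit its cells to a nephric fate, and *Gata3* acts below them in the nephric duct. Around E10.5 the metanephric mesenchyme secretes GDNF, which binds the receptor RET on the duct and calls out the ureteric bud, while *Wt1*, *Sall1* and *Emx2* are needed in the mesenchyme, bud and gonadal ridge. Most of these genes are also known from other sites of the same embryo. *Pax2* and *Pax8* mark the midbrain-hindbrain boundary and otic vesicle, *Lhx1* spinal interneurons, *Ret* enteric neural crest, *Wt1* mesothelium and epicardium, *Emx2* the forebrain, and *Osr1* and *Sall1* limb buds. Counts from a whole embryo sum over all of these sites, and fewer cells of a type cannot be told apart from less RNA per cell.

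*Mir483* gives 2 mature microRNAs, which are shown because the mutation multiplies them and because 2 of the 10 transcripts hold a match to their seeds. Sequences are RNA from RefSeq (GRCm38.p6, minus strand of chromosome 7), with the seed, bases 2 to 8, in capitals. The first spans 142654932 to 142654952 and the second 142654968 to 142654989, within an intron of *Igf2*.
miR-483-3p: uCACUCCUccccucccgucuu
miR-483-5p: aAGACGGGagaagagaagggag
The 3′ UTR of the longest coding transcript of each gene (GENCODE M21, GRCm38, sense strand) was searched for AGGAGTG and CCCGTCT, the complements of the 2 seeds. One gene held each of them. In the sequences that follow, capitals mark the site.
*Gdnf* site for miR-483-3p: aaaactggatAGGAGTGagaacagccg
*Pax2* site for miR-483-5p: ccacatcgtcCCCGTCTgaccgcccac
The *Gdnf* site lies on the plus strand of chromosome 15 from 7835032 to 7835038, at bases 200 to 206 of a 3′ UTR of 2743 bases, the longest among the 10 genes. It is followed by an A, which makes it an 8mer site. The *Pax2* site lies on the plus strand of chromosome 19 from 44836083 to 44836089, at bases 56 to 62 of a 3′ UTR of 1824 bases, and is not followed by an A. Among 13923 genes tested that had an annotated 3′ UTR, 12.4% held a miR-483-3p match and 3.44% a miR-483-5p match, so 1 of 10 genes with each is close to the share of all genes for the first and rests on a single gene for the second. An 8mer site for miR-483-3p was held by 3.38% of these genes, and that comparison also rests on a single gene. A match is a run of letters and was not shown to be bound.

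The libraries held between 6357343 and 19151368 counts, and the level reached by 3 counts lay between 0.157 and 0.479 CPM (counts relative to the scaled total of the library). *Mir483* itself had 11, 5 and 2 counts in WT and 85, 51 and 36 counts in 5C, which follows the labels. Y-linked *Ddx3y* measured 41.6 to 55.9 CPM in 4 libraries but 0.944 CPM in WT replicate 2 and 0 counts in 5C replicate 2, against the stated male sex of the pools. A list of 8 visceral yolk sac endoderm markers summed to 6039, 180.2 and 424.5 CPM in WT and to 118.9, 121.3 and 1170 CPM in 5C, so that WT replicate 1 and 5C replicate 3 stood apart. None of the 10 genes is on that list. All results rest on 3 samples per genotype. For the 10 genes and some of the related genes, values with libraries left out are also given, while the marker sums cover all libraries.

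Across the 10 genes, no difference between 5C and WT was found. All 10 passed the filter on low counts, and 0 of 10 were called at an adjusted p under 0.05 with a fold change over 1.5 in edgeR's quasi-likelihood test, where 0% of the 16784 genes tested were called. The paper did report differentially expressed genes between these genotypes at the same thresholds, so the share of 0% departs from it. The reason was not tested. At an unadjusted p under 0.05 there were 0 of 10, against 6.02% of all genes tested, and DESeq2 and limma-voom also gave 0 of 10. In every one of the 10 genes the WT and 5C values overlapped, whereas 11.4% of all genes tested had 3 WT and 3 5C values that did not overlap. With 10 genes, a share of that size would amount to about 1 gene, so a count of 0 does not set them apart. Log2 fold changes lay between -0.15 (*Gata3*) and 0.08 (*Ret*), 7 below and 3 above 0, with a median of -0.04 against -0.00 over all genes tested. Summed over the 10 genes, the level was 86.7 ± 15.6 CPM over WT libraries and 83.2 ± 6.46 CPM over 5C libraries (SD, n = 3 each).

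**Figure D1:**
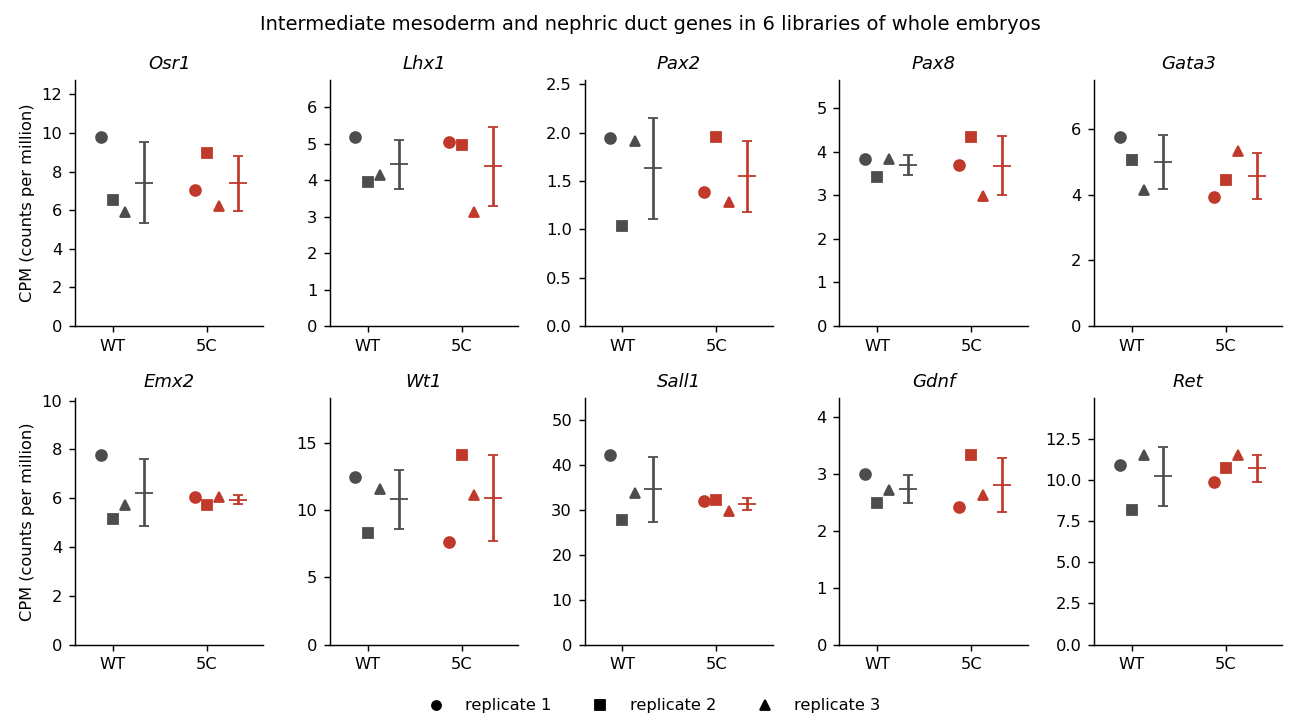
Each panel plots 1 gene in CPM from 0, with WT libraries in grey and 5C libraries in red, symbols for the replicate number and a bar with the mean ± SD (n = 3 per genotype). The 3 values of the genotypes overlap in all 10 panels, and WT replicate 1 is the highest library in 5 of them.

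*Osr1* (ENSMUSG00000048387; chromosome 12, 9570116 to 9581500) encodes the zinc finger factor that is among the earliest in intermediate mesoderm. It measured 9.81, 6.53 and 5.90 CPM in the WT libraries and 7.03, 8.96 and 6.19 CPM in the 5C libraries. WT replicate 1 was highest and WT replicate 3 lowest, so that the WT libraries spanned all 5C libraries. The means were 7.41 ± 2.10 and 7.40 ± 1.42 CPM (SD, n = 3 each), for a log2 fold change of -0.04, a standard error (SE) of 0.22 and an adjusted p of 0.986.

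*Lhx1* (ENSMUSG00000018698; chromosome 11, 84518284 to 84525535), a LIM homeobox gene needed for nephric duct extension, measured 5.19, 3.95 and 4.15 CPM in the WT libraries and 5.03, 4.95 and 3.13 CPM in the 5C libraries. The lowest library was 5C replicate 3, the highest WT replicate 1. Its log2 fold change was -0.04 with an SE of 0.23.

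*Pax2* (ENSMUSG00000004231; chromosome 19, 44756045 to 44837871) and *Pax8* (ENSMUSG00000026976; chromosome 2, 24420560 to 24475599) are paired box paralogs that act redundantly in the nephric lineage. *Pax2* measured 1.94, 1.03 and 1.91 CPM in the WT libraries and 1.39, 1.96 and 1.28 CPM in the 5C libraries. These levels rest on only 12 to 37 counts per library, the fewest of the 10 genes, and WT replicate 2 was the lowest. *Pax8* measured 3.83, 3.43 and 3.83 CPM in the WT libraries and 3.70, 4.35 and 2.99 CPM in the 5C libraries, and here the 5C libraries spanned those of WT. Log2 fold changes were -0.09 (SE 0.31) for *Pax2*, which holds the miR-483-5p match, and -0.01 (SE 0.20) for *Pax8*, which holds no match for either microRNA. Per length, *Pax8* was above *Pax2* in all 6 libraries, by 2.17 ± 0.694 times in WT and 2.14 ± 0.201 times in 5C (SD, n = 3 each).

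*Gata3* (ENSMUSG00000015619; chromosome 2, 9857078 to 9890034), a zinc finger gene that maintains *Ret* in the duct, measured 5.77, 5.07 and 4.15 CPM in the WT libraries and 3.94, 4.44 and 5.34 CPM in the 5C libraries. Its log2 fold change of -0.15 (SE 0.20) was the lowest of the 10. The lowest library was 5C replicate 1 and the highest WT replicate 1, while 5C replicate 3 exceeded both other WT libraries.

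*Emx2* (ENSMUSG00000043969; chromosome 19, 59458372 to 59465357) encodes a homeobox factor of the ureteric bud, gonadal ridge and cortex. It measured 7.77, 5.15 and 5.74 CPM in the WT libraries and 6.06, 5.72 and 6.05 CPM in the 5C libraries. The 5C libraries lay close together (SD 0.193 CPM) inside a broader WT range (SD 1.37 CPM). The log2 fold change was -0.08 (SE 0.19).

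*Wt1* (ENSMUSG00000016458; chromosome 2, 105126529 to 105173616), the Wilms tumour gene needed in metanephric mesenchyme and gonadal ridge, had the widest spread in 5C. It measured 12.5, 8.33 and 11.6 CPM in the WT libraries and 7.64, 14.1 and 11.1 CPM in the 5C libraries, so that both the highest and the lowest of the 6 libraries were 5C. The means of 10.8 ± 2.22 and 10.9 ± 3.23 CPM (SD, n = 3 each) gave a log2 fold change of 0.00 with an SE of 0.23.

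*Sall1* (ENSMUSG00000031665; chromosome 8, 89027235 to 89044162), a zinc finger gene of the mesenchyme that is needed for the ureteric bud to invade it, was the most abundant. It measured 42.2, 27.7 and 33.8 CPM in the WT libraries and 31.9, 32.2 and 29.8 CPM in the 5C libraries, on 212 to 804 counts per library. All 5C libraries lay within the WT range. The means were 34.6 ± 7.25 and 31.3 ± 1.34 CPM (SD, n = 3 each). The log2 fold change came to -0.15 (SE 0.14), and its adjusted p of 0.828 was the smallest of the 10 genes.

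The ligand *Gdnf* (ENSMUSG00000022144; chromosome 15, 7810846 to 7837575) measured 2.99, 2.49 and 2.71 CPM in the WT libraries and 2.42, 3.33 and 2.63 CPM in the 5C libraries, on 17 to 57 counts per library. The highest and the lowest libraries were both 5C. Its transcript holds the 8mer match to miR-483-3p printed above, and its means were 2.73 ± 0.251 CPM over WT libraries and 2.80 ± 0.474 CPM over 5C libraries (SD, n = 3 each), for a log2 fold change of 0.01 and an SE of 0.21. The receptor *Ret* (ENSMUSG00000030110; chromosome 6, 118151745 to 118197718) measured 10.9, 8.16 and 11.5 CPM in the WT libraries and 9.88, 10.7 and 11.5 CPM in the 5C libraries, with WT replicate 2 the lowest. Its log2 fold change was 0.08 (SE 0.16). Per length, the ratio of *Ret* to *Gdnf* was 2.02 ± 0.263 in WT and 2.11 ± 0.331 in 5C (SD, n = 3 each), so the receptor-to-ligand ratio differed by less than its spread.

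A p above the threshold does not show that the genotypes were alike, and the intervals give what these libraries could have missed. The 95% intervals of the log2 fold changes were widest for *Pax2*, from -0.78 to 0.61, or 0.581 to 1.52 times the WT level. They were narrow for *Sall1*, from 0.725 to 1.12 times the WT level, and for *Ret*, from 0.828 to 1.35 times. For *Gdnf* the interval ran from 0.726 to 1.40 times. In this edgeR fit of all 6 libraries, a doubling or a halving in 5C lay outside the interval of all 10 genes. A 1.5-fold fall lay inside the interval only for *Pax2* and *Gata3*, whose lower bound was 0.663 times. A 1.5-fold rise lay inside it only for *Pax2*. These bounds hold for that fit alone. The SE of *Pax2* was 0.31 there, but 0.48 with DESeq2 and 0.41 without WT replicate 1 and 5C replicate 3. Without both replicate 2 libraries *Pax2* was at -0.53 (SE 0.30).

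**Figure D2:**
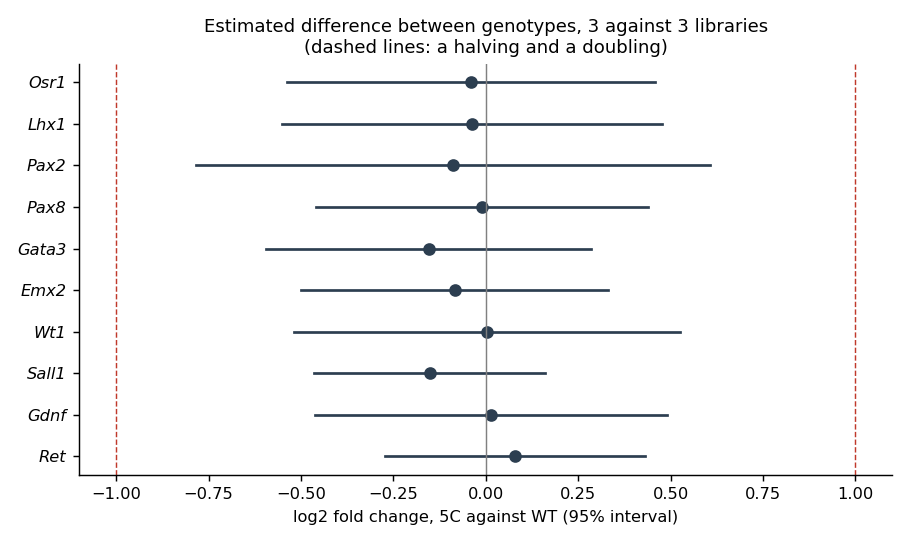
Points give the fitted log2 fold change of 5C against WT for each gene and lines its 95% interval (edgeR quasi-likelihood fit, 3 against 3 libraries). All 10 intervals include 0 and none reaches the dashed lines at -1 and 1.

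How far counting alone set this precision differed between genes. For *Pax2*, *Pax8* and *Gdnf*, the 3 genes with the fewest counts, counting error alone gives a coefficient of variation of 23.7%, 15.3% and 17.7%, and the libraries of a genotype varied by 28.0%, 13.8% and 13.6%. Differences between replicates of these genes were thus of the size of counting error. For *Sall1*, *Wt1* and *Osr1* counting error gives 5.16%, 9.0% and 11.2%, while replicates varied by 15.1%, 25.4% and 24.2%, well beyond it.

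Levels were compared between genes only after division by exon length, as CPM per kilobase of annotated exon over all 6 libraries. *Sall1* came first at 6.26 ± 0.95 and *Osr1* second at 3.58 ± 0.776, and neither overlapped the next gene down. *Emx2* (2.03 ± 0.296), *Wt1* (1.76 ± 0.40), *Ret* (1.54 ± 0.188), *Gata3* (1.20 ± 0.181), *Lhx1* (1.08 ± 0.197), *Gdnf* (0.752 ± 0.0928) and *Pax8* (0.609 ± 0.0751) followed, each overlapping its neighbour in this order (SD, n = 6). *Pax2* was last at 0.293 ± 0.0747 and lay below all *Pax8* values. By mean CPM without length, *Sall1* stood at the 60.1 percentile of the genes tested and *Pax2* at the 12.3 percentile. Exons not used at E10.5 would lower a value per length.

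The libraries differed from each other more than the genotypes did. In WT replicate 1 all 10 genes lay above their own mean over the 6 libraries, by 0.246 on the log2 scale on average, where the average over all genes tested was 0.034. In WT replicate 2 the average was -0.208, and 1 of 10 genes, *Gata3*, lay above its mean. In 5C replicate 2 the average was 0.156 with 7 genes above their mean. The other 3 libraries averaged 0.004, -0.096 and -0.101. WT replicate 1 is the library with the highest sum of yolk sac markers and the replicate 2 libraries are those with low Y-linked transcripts. The part of either in these shifts was not tested.

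**Figure D3:**
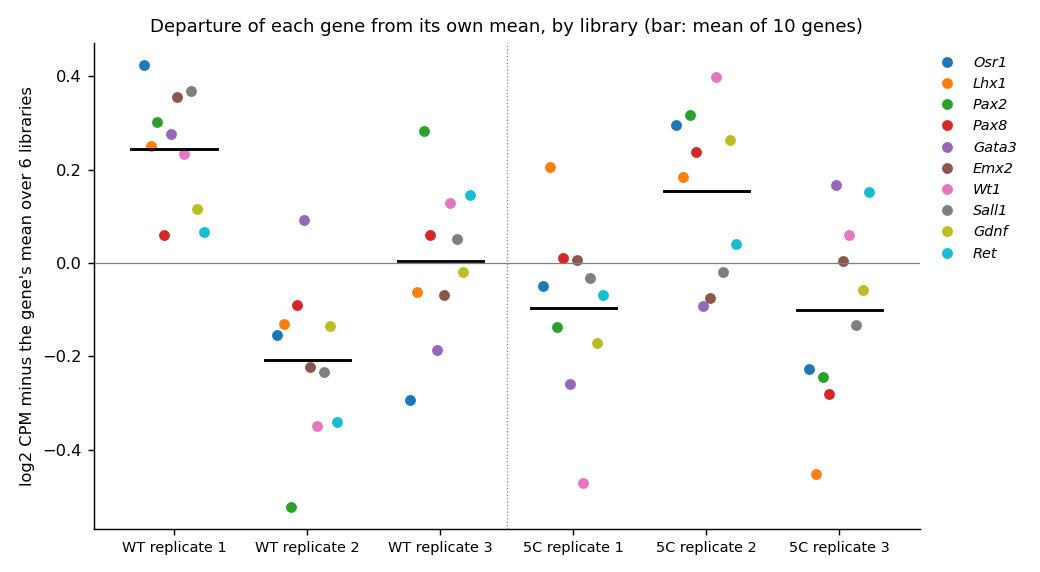
Each point is the log2 CPM of 1 gene minus its mean over the 6 libraries, and each bar is the mean of the 10 genes in that library. WT replicate 1 (0.246) and WT replicate 2 (-0.208) lie at opposite ends of the same genotype.

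Leaving out libraries moved the direction accordingly. Without WT replicate 1, 9 of 10 log2 fold changes were above 0, with a median of 0.13, and *Gata3* was the exception at -0.04. Without WT replicate 2, all 10 were below 0, with a median of -0.15, and without both replicate 2 libraries all 10 were below 0, with a median of -0.20 and values from -0.53 (*Pax2*) to -0.06 (*Ret*). Without WT replicate 1 and 5C replicate 3, the 2 libraries with the highest sums of yolk sac markers, 9 of 10 were above 0, with a median of 0.13. With offsets for transcript GC content the median was 0.03, with 6 of 10 above 0. None of the 10 genes was called in any of these fits. The smallest unadjusted p was 0.0290 for *Sall1* without WT replicate 2, a fit in which 10.4% of all genes tested had an unadjusted p under 0.05, and its adjusted p was 0.462 (edgeR). The direction of the 10 genes as a list is therefore not settled by these libraries.

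**Figure D4:**
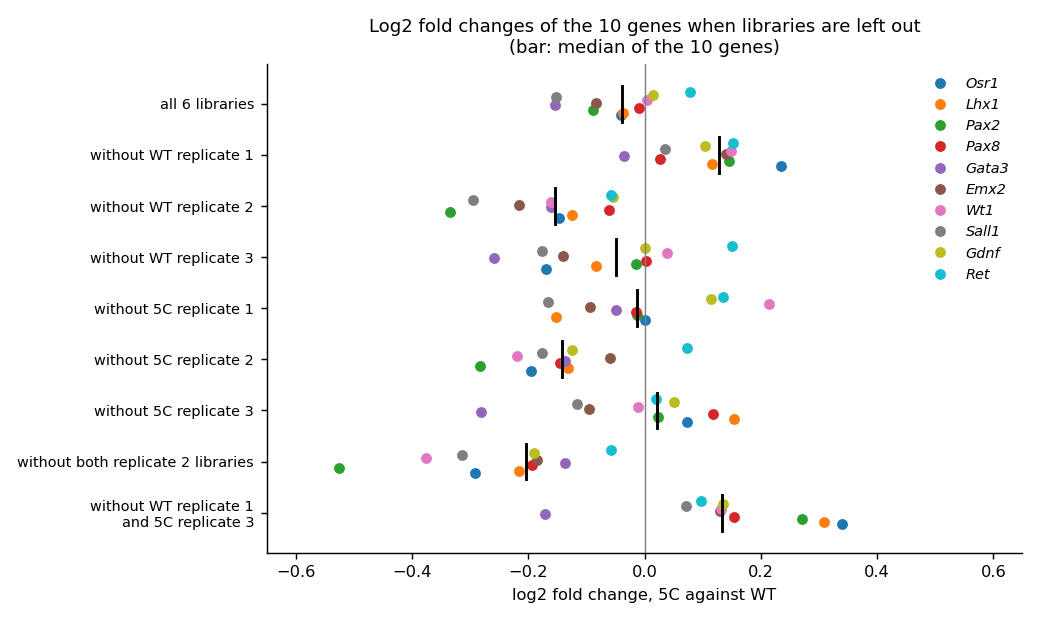
Points give the log2 fold change of each of the 10 genes in the fit named on the left, and bars the median. The median goes from -0.20 without both replicate 2 libraries to 0.13 without WT replicate 1 and 5C replicate 3.

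Neighbouring and antisense transcripts can share reads with the 10 genes. *Emx2os* runs antisense to *Emx2* and shares 264 of its 3002 exon bases. It measured 4.41, 3.43 and 3.51 CPM in the WT libraries and 3.70, 4.18 and 3.70 CPM in the 5C libraries, with overlapping genotypes and a log2 fold change of 0.01 (SE 0.19). *Wt1os*, which starts beside *Wt1* and runs the other way, measured 1.68, 0.773 and 0.957 CPM in the WT libraries and 0.727, 1.11 and 1.07 CPM in the 5C libraries. Like *Wt1* it was lowest in 5C replicate 1. *Lhx1os* lay between 1.28 and 1.85 CPM in the 6 libraries. The library kit keeps strand, but which strand column was deposited is not given in the sources used here. Of the other genes that overlap one of the 10, *4930412O13Rik* in a *Gata3* intron had 11 to 27 counts per library, while *Gm13415*, *Gm13256*, *9230102O04Rik*, *Gm20395*, *Mir6405*, *1700039E22Rik* and *1700022H16Rik* had 0 to 3. The largest share of exon bases under another gene on the same strand was 1.94%, for *Gata3* under *9230102O04Rik*. On the opposite strand the shares were 8.79% for *Emx2* under *Emx2os*, 6.06% for *Pax8* under *Gm13415* and 3.9% for *Gata3* under *Gm13256*.

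The 5 lists of related genes gave 70 further genes, of which 64 were tested and 0 were called. At an unadjusted p under 0.05 there were 6 of 64, or 9.38%, with 3 lower and 3 higher in 5C, and the genotypes did not overlap for 8 of 64. Over all genes tested these shares were 6.02% and 11.4%, so the second count is about the background share, and nothing particular to these lists is read from either. The counts per list that follow are small and are read against the same shares. DESeq2 and limma-voom called 0 in each list as well.

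Of 15 nephric duct and ureteric bud genes 13 were tested, and 0 had an unadjusted p under 0.05, and log2 fold changes had a median of 0.05. The 3 with the smallest p were *Tfap2b*, *Etv4* and *Calb1*, a nephron segment factor, an ETS factor induced by RET and a calcium-binding protein of the duct. *Tfap2b* measured 34.6, 29.8 and 34.3 CPM in the WT libraries and 36.1, 39.6 and 36.4 CPM in the 5C libraries, so its genotypes did not overlap. Its log2 fold change of 0.18 became 0.12 without WT replicate 2, 0.07 without both replicate 2 libraries and 0.23 without WT replicate 1. *Etv4* measured 22.4 ± 1.16 and 19.7 ± 2.68 CPM and *Calb1* 3.27 ± 0.706 and 4.2 ± 1.07 CPM (SD, n = 3 each), with overlap in both. *Cdh16*, a cadherin more restricted to renal epithelium, did not pass the filter. *Cdh16* lay between 0.258 and 0.957 CPM. This marker of duct epithelium was thus near the limit of detection.

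Among 20 metanephric mesenchyme and nephron progenitor genes, 19 were tested and 1 had an unadjusted p under 0.05, and log2 fold changes had a median of 0.07. This was *Cited1*, a transcriptional coactivator of nephron progenitors, at 23.0, 13.7 and 8.46 CPM in the WT libraries and 7.94, 8.11 and 10.3 CPM in the 5C libraries. Its log2 fold change was -0.82 (SE 0.30) with an adjusted p of 0.781 in edgeR's test. With 1 library left out it ranged from -1.08 without WT replicate 3 to -0.37 without WT replicate 1, the library with the highest sum of yolk sac markers. It was -0.51 without WT replicate 1 and 5C replicate 3, and -0.85 without both replicate 2 libraries. *Foxd1*, a marker of stroma, came next with 35.4 ± 1.83 against 40.3 ± 3.09 CPM (SD, n = 3 each), and its genotypes overlapped. *Hoxd11*, a posterior Hox gene of the mesenchyme, measured 3.18 CPM in WT replicate 2 and 7.09 to 10.6 CPM in the other 5 libraries, and *Hoxc11* was lowest there too at 1.03 CPM. These 2 were singled out after their values were seen, because WT replicate 2 was also low in the 10 genes.

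Of 12 gonad and urogenital ridge genes 11 were tested and 3 had an unadjusted p under 0.05, and log2 fold changes had a median of -0.05. *Lhx9*, a LIM homeobox gene of the gonadal ridge, measured 31.5, 22.1 and 31.9 CPM in the WT libraries and 34.7, 39.6 and 37.1 CPM in the 5C libraries. *Lhx2*, its paralog, measured 30.5, 24.3 and 25.8 CPM in the WT libraries and 33.3, 32.4 and 32.1 CPM in the 5C libraries. In both, all 5C libraries lay above all WT libraries, with log2 fold changes of 0.38 (SE 0.14) and 0.27 (SE 0.10). WT replicate 2 was the lowest library for both. Without it *Lhx9* was at 0.23 and *Lhx2* at 0.20, and without WT replicate 1 they were at 0.48 and 0.38. Without both replicate 2 libraries they were at 0.18 and 0.20, with unadjusted p-values of 0.146 and 0.147 in edgeR's test. *Podxl*, a sialomucin of podocytes, endothelium and coelomic epithelium, measured 150, 87.8 and 125 CPM in the WT libraries and 92.3, 84.4 and 95.7 CPM in the 5C libraries, with overlap. Its log2 fold change of -0.41 (SE 0.16) became -0.22 without WT replicate 1, -0.60 without WT replicate 2 and -0.26 without WT replicate 1 and 5C replicate 3. Without both replicate 2 libraries *Podxl* was at -0.55 (unadjusted p of 0.00176 and adjusted p of 0.837 in edgeR's test). In the fit of all 6 libraries the adjusted p-values of all 3 genes were 0.781. *Nr5a1*, the steroidogenic factor that defines the gonadal primordium, was present at 0.687 to 1.54 CPM. *Lhx2* is also a dorsal telencephalon marker in the lists below, and whole-embryo counts do not separate the gonadal ridge from other sites.

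In the list of GDNF family ligands, receptors and RET response genes, 17 of 19 were tested and 2 had an unadjusted p under 0.05, and log2 fold changes had a median of 0.01. *Gfra1*, the co-receptor that presents GDNF to RET, measured 32.4, 31.6 and 34.5 CPM in the WT libraries and 35.1, 36.0 and 34.7 CPM in the 5C libraries, with no overlap and an adjusted p of 0.797 in edgeR's test. The 3 genes with the smallest p were *Dusp6*, an ERK phosphatase induced by RET and FGF signalling, at 141 ± 11.1 and 162 ± 5.88 CPM, *Dok4*, a docking protein for RET, at 39.8 ± 2.19 and 34.2 ± 2.01 CPM, and *Gas1*, a GFRA-like surface protein, at 168 ± 4.27 and 180 ± 9.24 CPM (WT and 5C, SD, n = 3 each). The genotypes did not overlap for *Dusp6* and *Dok4*, whose log2 fold changes were 0.20 (SE 0.07) and -0.21 (SE 0.08) with adjusted p-values of 0.781. Leaving out both replicate 2 libraries gave 0.14 and -0.19 (unadjusted p of 0.143 and 0.145 in edgeR's test). Leaving out WT replicate 1 gave 0.23 and -0.26. *Pspn* had 1 count in all and *Gfral* had 0.

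All 9 paralogs of the 10 genes were tested, 0 had an unadjusted p under 0.05, and the median log2 fold change was -0.04. *Lhx5*, *Sall3* and *Sall2* had the smallest p. *Lhx5*, which is expressed with *Lhx1* in spinal interneurons, measured 8.97, 8.93 and 8.46 CPM in the WT libraries and 9.82, 12.0 and 9.04 CPM in the 5C libraries, so that its genotypes did not overlap. The log2 fold change, 0.22, became 0.09 without 5C replicate 2 and 0.30 without 5C replicate 3. *Sall2* at 113 ± 16.4 and 105 ± 8.99 CPM and *Sall3* at 9.97 ± 2.18 and 8.75 ± 1.19 CPM (SD, n = 3 each) did overlap.

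**Figure D5:**
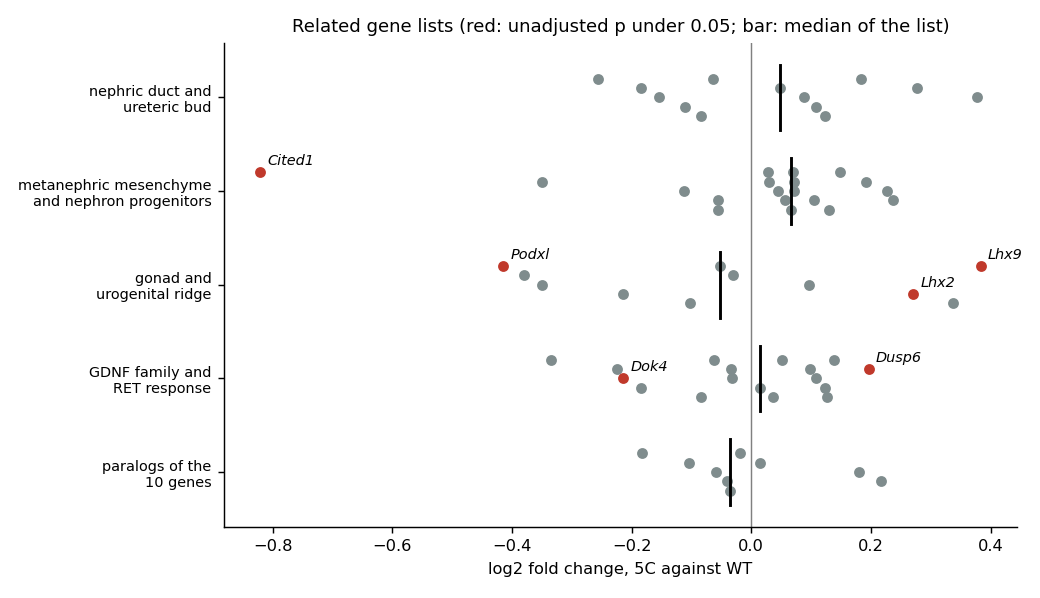
Each point is the log2 fold change of 1 tested gene in 1 of 5 related lists, red and named where the unadjusted p was under 0.05, and bars are list medians. Medians lie between -0.05 and 0.07, and *Cited1* at -0.82 lies farthest from 0.

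Marker lists of the other sites that express the 10 genes were summed per library, since the genes could follow them. Summed levels overlapped between WT and 5C for the midbrain-hindbrain boundary (32.1 to 36.9 and 31.0 to 42.7 CPM, 5 markers), the otic vesicle (10.8 to 12.8 and 8.47 to 13.8 CPM, 5 markers), epicardium and mesothelium (110.5 to 123.3 and 100 to 118.5 CPM, 6 markers) and decidua (24.4 to 66.5 and 33.5 to 65.1 CPM, 6 markers). They did not overlap for spinal and hindbrain interneurons (74.9 to 85.6 in WT and 89.1 to 96.2 CPM in 5C, 6 markers), enteric and autonomic neural crest (151.2 to 157.2 and 170.6 to 171.9 CPM, 5 markers), dorsal telencephalon (79.3 to 83.5 and 90.4 to 94.96 CPM, 4 markers) or thyroid bud (8.07 to 10.7 and 6.32 to 7.94 CPM, 4 markers). In these 4 lists 0 genes were called and 0, 1, 1 and 1 had an unadjusted p under 0.05, and no list-level test was made. Of all single genes tested, 11.4% did not overlap between genotypes and 6.02% had an unadjusted p under 0.05. No such share was computed for sums of markers, so nothing is read from these 4 lists. Of the genes described above, *Lhx5* is in the interneuron list and *Lhx2* in the telencephalon list. *Lhx1*, *Ret*, *Emx2* and *Pax8*, which are among the genes known from these sites, overlapped between genotypes, as did the rest of the 10 genes. The limb bud list summed to 456.6 to 911.0 CPM in WT and 466.1 to 501.3 CPM in 5C, because *Tbx4*, a hindlimb factor chosen once its values were known, measured 399 CPM in WT replicate 3 and 5.48 to 9.39 CPM in the other 5 libraries. No marker was at 0 in all 6 libraries. The most restricted ones were low, with *Msln* at 0 to 0.319 CPM and *Hmx3* at 0.142 to 0.606 CPM.

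The profile of the 10 genes over the 6 libraries, taken as the mean of their centred log2 CPM, was compared with that of every other gene tested. By root mean square difference over 6 libraries the nearest were *Gm43268* (0.02), *Prkar2a*, a regulatory subunit of protein kinase A (0.05), *Pcdh7*, a protocadherin (0.05), *Lrrc17* (0.05) and *Foxp1*, a forkhead factor (0.05, all on the log2 scale). *Foxp1* measured 108, 84.1 and 95.2 CPM in the WT libraries and 90.5, 101 and 92.7 CPM in the 5C libraries, in the same order as the mean of the 10 genes for the 2 highest and the lowest libraries. Of the 10 genes themselves, *Gdnf* was nearest to their mean (0.08) and *Gata3* farthest (0.22). With 16784 genes and 6 libraries, close profiles are easily found, and nothing is read from them.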

How the data were processed

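The study compared whole E10.5 embryos of WT and 5C genotype, with 3 libraries each, grouped by sample title. Per the study's methods, the authors sequenced stranded poly(A) libraries as single-end reads and aligned them by STAR against GRCm38 and an Ensembl gene set. The deposited values are raw counts per gene and library, without normalization or filtering.

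Symbols, positions, exon lengths and 3′ UTRs came from GENCODE M21 (GRCm38), which held 55141 of the 55401 gene identifiers. Counts were fitted with edgeR 4.0.16 in R 4.3.3 over all genes that passed filterByExpr, with TMM scaling and the legacy form of the quasi-likelihood F-test, two-sided, adjusted by the Benjamini-Hochberg method. Calls needed an adjusted p under 0.05 together with a change of more than 1.5-fold. The SE was the log2 fold change divided by the square root of F, and 95% intervals used the fit's degrees of freedom. CPM used TMM-scaled totals, and log2 CPM a prior count of 2. Intervals and floors of 3 counts cover counting error and the spread between these libraries only. Library pairs differed beyond sampling noise (chi-square per gene at least 5.77), so all 6 were kept as separate samples. Replicate numbers are not stated to mark litters. The functions were tested on simulated data.

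The 10 genes, the related lists and the marker lists were chosen with earlier results of these data known. Named were all 10 genes, genes overlapping them, the antisense transcripts, the 3 genes with the smallest p of each related list and the 5 genes nearest to the mean profile, and others where stated. Some genes that this rule names are not reported here. *Cdh16*, *Gfra1*, *Nr5a1*, *Pspn*, *Gfral*, *Msln* and *Hmx3* were named for their role or their low level after values were seen. Alternatives were 2 other scalings, 2 other filters, DESeq2 1.42.0, limma-voom (limma 3.58.1), 2 other forms of the quasi-likelihood test, the replicate block, transcript GC-content offsets, both together, and left-out libraries. Leaving out WT replicate 1 and 5C replicate 3 together was added after the data were seen.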

Additional observations from a re-analysis of the deposited data

How the results depend on the processing

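No alternative called any of the 10 genes. In each, the median of their log2 fold changes moved by less than 0.19. That value is the SD between replicates of the mean of the 10 genes in a library, not an error of the median. The median lay between -0.15 and 0.13 when 1 library was left out, so its sign was not stable. The number of genes called over the whole table became 319 without a count filter, 11 with DESeq2, 3 with robust moderation, 2 without WT replicate 1 and 5C replicate 3, and 0 to 1 when 1 library was left out. Without a count filter 1 listed gene, *Cited1*, was called. With 8mer sites only, 0 of the 10 genes held a miR-483-5p match. The causes were not tested.

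Log2 fold changes changed sign in 41 fits of single genes. The genes were not only those near 0, since *Sall1* was at -0.15 in edgeR's test of all 6 libraries. *Wt1* was -0.0017 under relative log expression, -0.0044 with at least 10 counts in every sample, -0.0006 with DESeq2, -0.0608 with limma-voom and -0.022 with the replicate block. *Pax8* was 0.0066 with library size alone and 0.0014 without a count filter, and *Gdnf* was -0.0216 with limma-voom. GC-content offsets gave 0.0332 for *Pax8*, 0.0442 for *Osr1* and 0.0321 for *Lhx1*, and with the replicate block added 0.0346, 0.0701 and 0.0423. Without both replicate 2 libraries *Wt1* was -0.38, *Ret* -0.0585 and *Gdnf* -0.19. Without WT replicate 1 and 5C replicate 3 *Pax2* was 0.27, *Pax8* 0.15, *Osr1* 0.34, *Lhx1* 0.31, *Sall1* 0.0704 and *Emx2* 0.13.

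When 1 library was left out, values went from -0.33 to 0.15 for *Pax2*, -0.15 to 0.12 for *Pax8*, -0.20 to 0.23 for *Osr1*, -0.22 to 0.21 for *Wt1*, -0.15 to 0.15 for *Lhx1*, -0.0578 to 0.15 for *Ret*, -0.13 to 0.11 for *Gdnf*, -0.29 to 0.0352 for *Sall1* and -0.22 to 0.14 for *Emx2*. *Gata3* stayed below 0, from -0.28 to -0.04.

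The replicate block changed no call, with 782 genes at an unadjusted p under 0.05 against 1011 without it. No consistent pairing by number was seen. Deviations from the genotype means correlated at -0.174, 0.202 and -0.166 for numbers 1, 2 and 3, and only the libraries of number 2 correlated best with their own number. With 3 libraries per genotype, such correlations cannot exclude a pairing by litter. Depth limits *Pax2* and *Gdnf* most, with 12 and 17 counts in the smallest library.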
